A study of Arabidopsis thaliana with 18 samples.

Results

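Dry seeds of the Arabidopsis thaliana line labelled tcp14 were compared with dry wild-type seeds, 3 libraries against 3 out of 18 in the series. The libraries were chosen by their titles. Every locus was followed, 33602 transcript models in all, of which 18061 had enough read pairs across the series to be tested. Neither group had been put in water. Plants had been grown in soil at 21 °C, and the labels describe the mutants as gene knock outs, without giving the allele of tcp14, the wild-type accession or the number of lines behind the seeds. The other groups used here are seeds of the same labels kept for 24 h on wet filter paper in the dark at 25 °C while dormant, and dry seeds of a line labelled mpk8. All RNA was selected for poly(A) tails. The labels call the 3 replicates of a group biological but do not say whether they came from separate plants or seed lots, so p-values measure the spread between these libraries.

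TCP14 is a class I member of the TCP family, plant transcription factors that bind short GC-rich promoter elements and are known for tuning cell proliferation. In Arabidopsis it is known for promoting germination by acting in the embryo. A dry seed makes little or no new RNA. It holds the transcripts stored during maturation, chiefly those of storage proteins, oil body proteins, late embryogenesis abundant (LEA) proteins and small heat shock proteins. A difference between dry seeds therefore concerns this stored set, and in bulk seeds fewer cells of a type cannot be told apart from less RNA per cell.

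Dry libraries held 13201516 to 15753710 counted pairs in wild type and 13379713 to 21233207 in those labelled tcp14. Levels are given as CPM, counts per 1000000 pairs after scaling each library total by its TMM factor, and these factors were 0.728 to 0.758 and 0.728 to 0.777. Between replicates the median coefficient of variation was 5.58% in wild type and 6.01% in the tcp14-labelled group, over loci of at least 5 CPM. No library repeated another, since the pair of replicates closest to each other still differed by 1.68 times the counting noise (chi-square per degree of freedom). The share of pairs dropped for several equally good hits was 2.04% to 2.11% in wild type and 1.84% to 1.95% in the tcp14-labelled libraries, and its part in the results was not tested.

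The gene named in the label was higher, not lower. TCP14 (AT3G47620, chromosome 3) stood at 5.77, 6.38 and 8.43 CPM in the wild-type libraries and at 44.5, 43.5 and 44.2 CPM in the tcp14-labelled ones. The groups lay far apart, and the tcp14-labelled libraries differed from one another less than the wild-type ones. The means were 6.86 ± 1.40 and 44.1 ± 0.501 CPM (SD, n = 3), a 6.46-fold difference (log2 fold change 2.69, SE 0.114, adjusted p = 2.17e-14, edgeR quasi-likelihood test). The counts cover the whole model and do not show which part of TCP14 was read, so the libraries are called by their label throughout. MPK8, a mitogen-activated protein kinase gene, stood at 11.1, 11.1 and 12.1 CPM in wild type and at 12.7, 13.0 and 11.7 CPM in the tcp14-labelled libraries, with groups that overlapped (log2 0.13, SE 0.107, adjusted p = 0.512). The mpk8 line, by contrast, had 4.04 ± 0.502 CPM of MPK8 and 7.10 ± 0.521 CPM of TCP14 in its dry seeds.

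Across all loci tested, 2058 (11.4%) passed an adjusted p of 0.05, 1106 (6.12%) of them higher and 952 (5.27%) lower in the tcp14-labelled libraries. Which direction held more calls turned with the scaling: 53.7% of calls were higher here, 45.3% with DESeq2 size factors, 43.9% with the DESeq2 Wald test and 62.7% with library totals. Most of these differences were small. A change of at least 2-fold was called for 377 loci (2.09%), 226 (1.25%) higher and 151 (0.836%) lower, and 160 loci passed 4-fold. Leaving out wild-type replicate 2 brought the 2058 calls to 1347, while the calls at 2-fold stayed between 329 and 368 whichever library was left out. These were not all the same loci, since 296 to 335 of the 377 kept their call at 2-fold.

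Most of these larger differences lay along 2 stretches of the genome, and 100 of the 377 (26.5%) lay elsewhere. Arabidopsis locus numbers follow the order of genes along a chromosome, so the tested loci were put in bins of 2500 locus numbers, and a segment is a run of at least 3 bins in which at least 4% of the tested loci were called at 2-fold, with at most 1 lower bin inside. Bins with fewer than 20 tested loci were passed over. By this rule chromosome 1 held a segment from locus number 20000 to 37499, with its outermost calls at AT1G20410 and AT1G35720. The nearest call below it, AT1G19990, lay just across the bin line. Chromosome 3 held one from 20000 to 62499, with its outermost calls at AT3G20530 and AT3G62460, and TCP14 lies inside it. The segments were drawn from these very calls, so the shares within them are a description with no test.

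**Figure D1:**
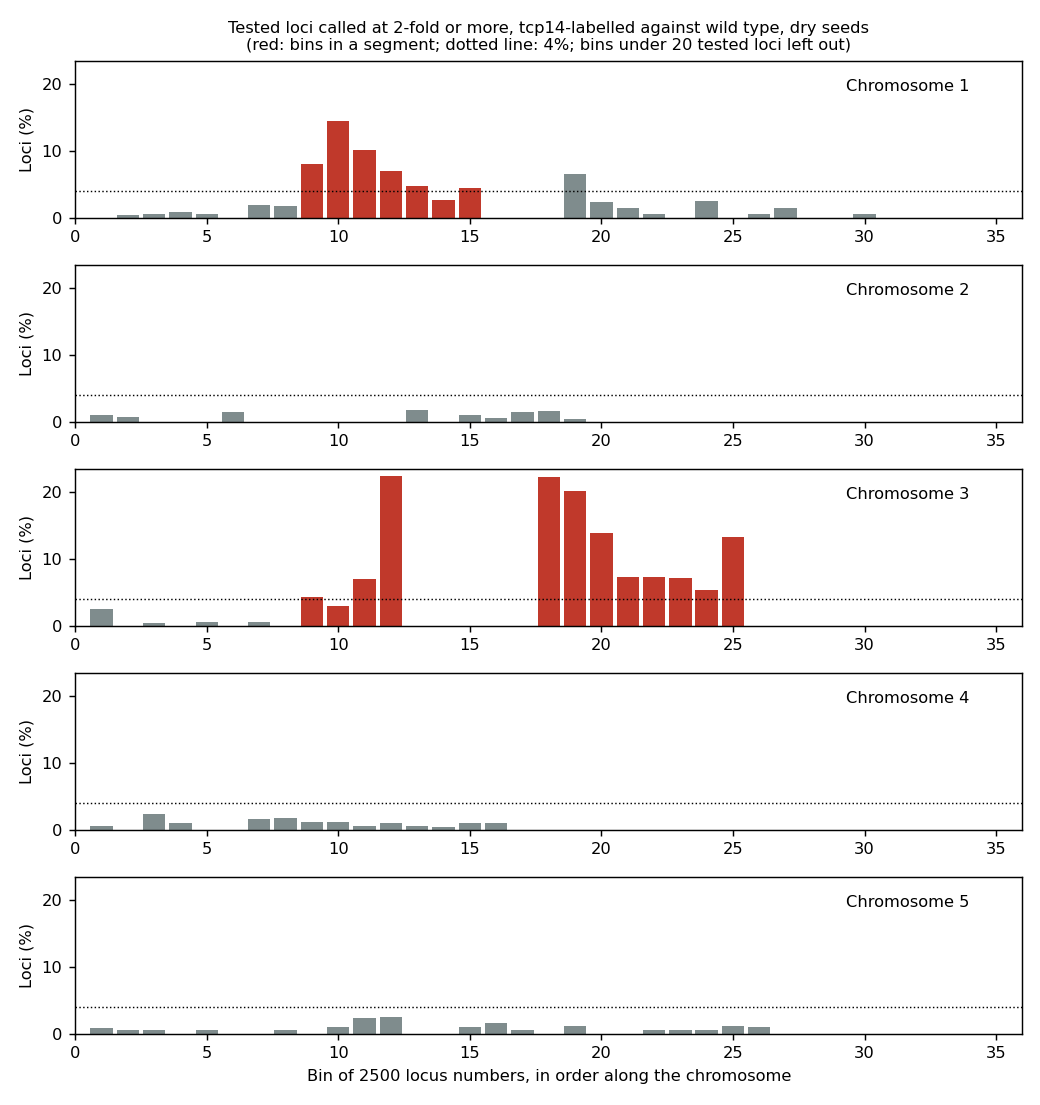
Percent of tested loci called at 2-fold or more between tcp14-labelled and wild-type dry seeds, for each bin of 2500 locus numbers in order along the 5 chromosomes (bins with fewer than 20 tested loci are left blank). Red bars belong to the segments, which reach 14.4% on chromosome 1 and 22.3% on chromosome 3, while 94 grey bins have a median of 0.517%.

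The segments held 2941 of the tested loci (16.3%) and 277 of the 377 calls at 2-fold (73.5%). Inside them 9.42% of loci were called at 2-fold, 7.67% on chromosome 1 and 10.2% on chromosome 3, against 0.661% of the 15120 loci elsewhere. Both directions were present: 36 loci were higher and 35 lower on chromosome 1, and 118 higher and 88 lower on chromosome 3. Of the 160 differences of at least 4-fold, 130 lay inside. Among the better expressed loci, with at least 5 CPM in either group, 125 of 1818 inside (6.88%) and 21 of 9444 outside (0.222%) were called at 2-fold.

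Within the chromosome 3 segment the share was highest on either side of the sparsely tested centre, at 27 of 121 loci in the bin from AT3G27500 to AT3G29999 and 22 of 99 in the bin from AT3G42500 to AT3G44999. It was 9 of 168 loci (5.36%) in the bin from AT3G57500 and 25 of 189 (13.2%) in the last bin of the segment, from AT3G60000. The chromosome 1 segment was highest from AT1G22500 to AT1G24999, with 20 of 139 loci (14.4%). The bins of the segments nearest the 4% line had 8 of 184 loci (4.35%, from AT3G20000) and 2 of 45 (4.44%, from AT1G35000), and the lower bins allowed inside had 2.89% and 2.59%. Of the 94 usable bins outside, 37 had no call at 2-fold and 1 passed 4%, the bin from AT1G45000 with 3 of 46 loci (6.52%). With bins of 1000 locus numbers the same rule gave 3 segments, 20000 to 31999 on chromosome 1 and 24000 to 55999 and 57000 to 62999 on chromosome 3.

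Around TCP14 itself, 9 of the 50 nearest tested loci, 25 on each side, were called at 2-fold, 4 higher and 5 lower (18.0%). This share was like that of the bins around it, 25 of 124 loci (20.2%, from AT3G45000) and 26 of 187 (13.9%, from AT3G47500). SELT, coding for a selenoprotein T-like protein, was at 9.23, 8.76 and 10.3 CPM in wild type and 36.1, 40.8 and 38.2 CPM in the tcp14-labelled libraries (log2 2.03, SE 0.113, adjusted p = 3.24e-12). On the other side of TCP14, AT3G47680, coding for a DNA-binding protein, was at 35.0 ± 3.27 CPM in wild type and at 0.0537 ± 0.0491 CPM in the tcp14-labelled libraries (log2 -9.24, SE 0.320, adjusted p = 5.17e-16). Between these genes, PYE, a basic helix-loop-helix factor known from the iron response, was lower by log2 -0.54, and further along, AT3G47800, annotated as a galactose mutarotase-like protein, was higher at 47.1 ± 3.32 CPM against 23.7 ± 1.71 CPM in wild type (adjusted p = 7.66e-10).

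Among loci that carry a symbol, reach 5 CPM in one group and have libraries that do not overlap, the largest increases were a mixed set of enzymes and regulators. Without any condition on size, 29.1% of tested loci had libraries that did not overlap. TIF3C2, a second gene for a subunit of translation initiation factor 3, was almost silent in wild type (0, 0.0850 and 0.104 CPM) and stood at 13.6, 14.7 and 17.1 CPM in the tcp14-labelled libraries (log2 7.75, SE 0.385, adjusted p = 4.06e-13). CYP71A22, a cytochrome P450 gene, had no pair in any wild-type library and 5.37, 5.58 and 4.60 CPM in the tcp14-labelled ones, at least 54.7-fold higher when the wild-type group is set at a floor of 3 pairs. CYP94B3, coding for an enzyme that inactivates jasmonoyl-isoleucine, the active jasmonate hormone, was at 0, 0.425 and 0.208 CPM against 6.73, 5.78 and 5.56 CPM (log2 4.74, SE 0.454, adjusted p = 6.55e-08). All 3 of these genes lie in the chromosome 3 segment and were near zero in wild type.

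Other increases started from a higher level in wild-type seeds. CYP71B18, an annotated P450 locus, was at 41.8, 43.7 and 41.8 CPM in wild type and 243.9, 230.4 and 231.0 CPM in the tcp14-labelled libraries (log2 2.47, SE 0.0568, adjusted p = 2.24e-19). ANNAT1, an annexin that binds membranes in the presence of calcium, was at 31.1, 31.0 and 35.2 CPM against 157.1, 138.2 and 135.0 CPM (log2 2.15, SE 0.104, adjusted p = 2.33e-13). NGA2, a B3-domain factor of the NGATHA group, went from 1.58 ± 0.214 to 6.96 ± 0.221 CPM (log2 2.14), and UGT85A7, a UDP-glycosyltransferase gene, from 1.303 ± 0.320 to 5.11 ± 0.460 CPM (log2 1.95). Again near zero in wild type, 5PTASE11 (AT1G47510), an inositol polyphosphate 5-phosphatase gene, was the only one of the 10 largest increases outside the segments, at 0.481, 0.595 and 0.104 CPM in wild type against 5.50, 6.83 and 5.56 CPM (log2 3.84, SE 0.324, adjusted p = 2.21e-08). It lies just past the bin from AT1G45000. The place of ANNAT1 and TIF3C2 inside the segments depended on the bins. ANNAT1 and its neighbour AT1G35690 were themselves the 2 calls among 45 loci in the last bin of the chromosome 1 segment. With bins of 1000 locus numbers, ANNAT1 and TIF3C2 (AT3G22860) lay outside the segments too.

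**Figure D2:**
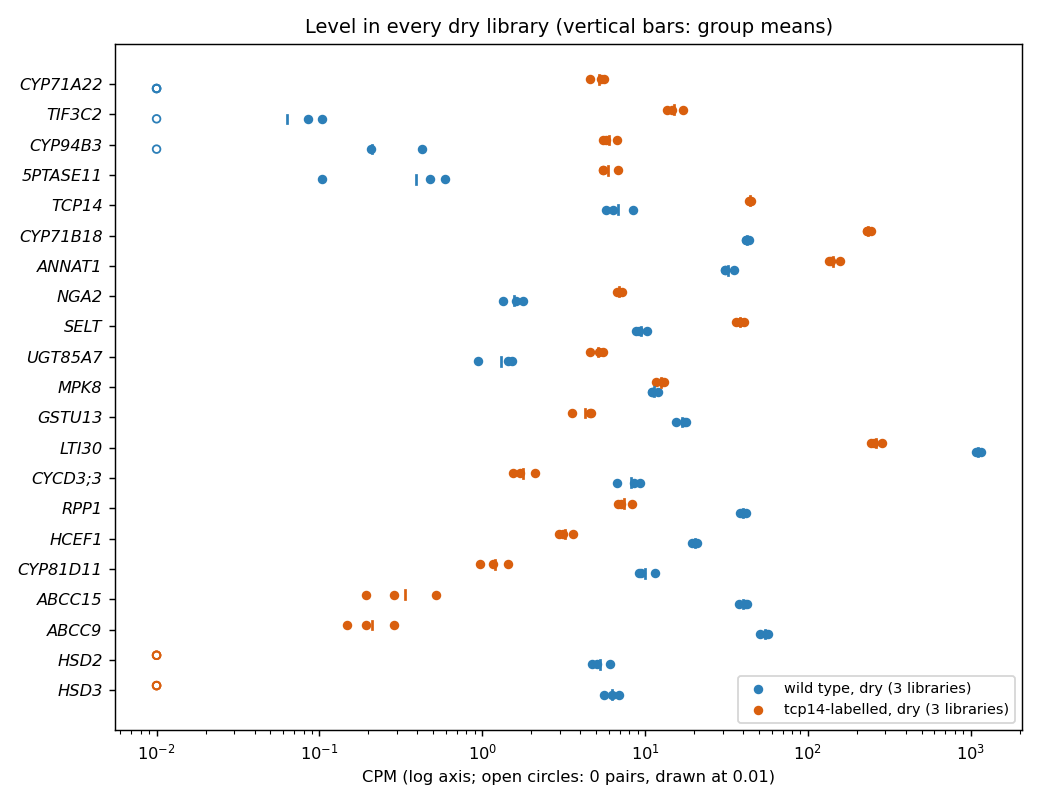
CPM in each of the 6 dry libraries (log axis) for the 10 largest increases, the 10 largest decreases and MPK8, with vertical bars for group means. Wild-type and tcp14-labelled libraries do not overlap for any gene but MPK8; TCP14 sits at 44.1 CPM in the tcp14-labelled group against 6.86 CPM in wild type.

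All 10 of the largest decreases lay in the segments. ABCC9, coding for an ATP-binding cassette transporter of subfamily C, was at 57.0, 51.0 and 55.3 CPM in wild type and 0.194, 0.289 and 0.148 CPM in the tcp14-labelled libraries (log2 -8.01, SE 0.175, adjusted p = 2.11e-19). Its relative ABCC15 was at 41.1, 37.7 and 42.0 CPM against 0.194, 0.289 and 0.519 CPM (log2 -6.90, SE 0.194, adjusted p = 1.43e-16). Both transporter transcripts were thus close to the detection limit in every tcp14-labelled library, while the third changed member of that subfamily in the segments at 2-fold, ABCC10, fell from 16.6 ± 1.82 to 6.45 ± 0.861 CPM (log2 -1.38). HSD2 and HSD3, neighbouring hydroxysteroid dehydrogenase genes of the family that includes oil body steroleosins, had no pair in any tcp14-labelled library against 5.31 ± 0.729 and 6.24 ± 0.656 CPM in wild type, at least 70.1-fold and 82.1-fold lower by the same floor.

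The abundant dehydrin LTI30, which protects membranes in drying cells, was at 1080, 1089 and 1162 CPM in wild type and 286.1, 244.3 and 255.1 CPM in the tcp14-labelled libraries (log2 -2.08, SE 0.0639, adjusted p = 6.44e-17). RPP1, an immune receptor for downy mildew, was at 39.5, 41.7 and 38.4 CPM against 8.29, 6.83 and 7.12 CPM (log2 -2.41, SE 0.0764, adjusted p = 9.48e-17). HCEF1, a plastid fructose-1,6-bisphosphatase, fell from 20.3 ± 0.675 to 3.24 ± 0.339 CPM (log2 -2.63). The other decreases were CYP81D11, a P450 gene, from 10.02 ± 1.25 to 1.19 ± 0.241 CPM (-3.08), the D-type cyclin CYCD3;3 from 6.73, 8.503 and 9.26 CPM to 1.55, 2.12 and 1.71 CPM (-2.21) and the glutathione transferase GSTU13 from 16.9 ± 1.28 to 4.28 ± 0.627 CPM (-1.99). By the separate rule for each segment, UGT85A3, a glycosyltransferase gene, was higher (19.6 ± 1.89 to 65.2 ± 3.60 CPM, log2 1.73) and ATL15, a RING-type ubiquitin ligase gene, lower (21.0 ± 2.31 to 6.63 ± 0.618 CPM, log2 -1.65) on chromosome 1.

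Some loci were present in one group and without a single pair in the other. With at least 30 pairs in one dry group as the condition, 19 loci had none in the tcp14-labelled libraries and 10 had none in wild type. All 19 of the first kind lay in the segments, 5 on chromosome 1 and 14 on chromosome 3, as did 9 of the 10 of the second kind, the exception being AT2G41451. AT1G23960, coding for a protein of unknown function, was at 50.1, 49.4 and 49.2 CPM in wild type, 1575 pairs in all, and had none in the tcp14-labelled libraries, at least 649.7-fold lower. In the other direction AT1G35690, close to ANNAT1, was at 8.22, 10.01 and 9.05 CPM in the tcp14-labelled libraries and at zero in wild type, at least 95.1-fold higher. With bins of 1000 locus numbers AT1G35690 lay outside the segments. Each of the 19 loci missing from the tcp14-labelled libraries had at least 3 pairs in dry mpk8 seeds. Among those with a symbol were PLC8, a phospholipase C gene, HR4, a homologue of the RPW8 mildew resistance genes, and pBRP2, a relative of general transcription factor IIB, while the annotated histone deacetylase genes hda10 and hda17 were among those missing from wild type. A group without a pair can hold up to 3 pairs by chance of counting alone, and these limits cover counting error only.

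Some neighbouring loci were called in the same direction. Neighbours called in opposite directions were not counted, and the number of runs that the density of calls alone would give was not worked out. Among the 377 loci called at 2-fold there were 31 runs of 2 or more consecutive tested loci that went in one direction, with 71 loci in all, and 30 of these runs (69 loci) were in the segments. The longest had 5 loci, all lower: LpxC2 and LpxC3, genes for a plant form of a bacterial lipid A enzyme, and AT1G25098, AT1G25175 and AT1G25211. LpxC2 was at 4.91 ± 0.893 CPM in wild type and 0.0216 ± 0.0374 CPM in the tcp14-labelled libraries, and AT1G25211, an F-box gene, was at 9.39 ± 0.475 CPM against no pair. Next to AT1G23960, AT1G23950 of the same annotated domain family fell from 152.9 ± 3.52 to 19.5 ± 1.34 CPM (log2 -2.97, SE 0.0682), and AT1G23935 and AT1G23940 completed a run of 4.

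The CYP71B and UGT85A clusters held calls in both directions, unlike the pairs HSD2 and HSD3 and LpxC2 and LpxC3, which were lower together. Of the 14 tested CYP71B genes in the chromosome 3 segment, 8 were called, where 27.0% of all tested loci of that segment were. CYP71B17, CYP71B18, CYP71B19 and CYP71B20 were consecutive and all higher at 2-fold, and CYP71B23 was higher too (log2 2.28, adjusted p = 0.00738). Apart from CYP71B18 these genes were low. In wild-type and tcp14-labelled libraries CYP71B17 was at 0.123 and 1.32 CPM and CYP71B19 at 0.700 and 2.01 CPM. CYP71B20 was at 0.229 and 2.04 CPM and CYP71B23 at 0.240 and 1.25 CPM. A little further along the same cluster CYP71B4 was lower (12.3 ± 0.190 to 7.48 ± 0.486 CPM, log2 -0.71), as was CYP71B26 (-0.82). Some of these directions turned in imbibed seeds, where CYP71B19 (log2 -0.47) and CYP71B20 (-1.11) were called lower and CYP71B4 (0.80) and CYP71B26 (1.59) higher. CYP71B17 (2.63), CYP71B18 (1.99) and CYP71B23 (1.88) were called higher there too. The 6 CYP71B genes elsewhere had 2 calls in dry seeds, beside 8.53% of all loci there, and none at 2-fold, CYP71B14 being higher by log2 0.65. In the CYP71A cluster further along from TCP14, CYP71A26 was at 104.1, 91.9 and 98.6 CPM in wild type and 319.0, 290.3 and 298.7 CPM in the tcp14-labelled libraries (log2 1.63, SE 0.0686, adjusted p = 2.17e-14), and CYP71A23 rose beside CYP71A22. In the UGT85A cluster on chromosome 1, UGT85A7, UGT85A3 and UGT85A1 (47.1 ± 4.99 to 95.01 ± 2.13 CPM) were higher, UGT85A5 was lower (log2 -0.45), and UGT85A2 was at 10.8 ± 0.913 and 10.6 ± 0.732 CPM. Members of such families share sequence, pairs with several equally good hits had been removed, and the values of near-identical copies (LpxC2 and LpxC3, HSD2 and HSD3, the RPP1 cluster) are uncertain for that reason.

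Outside the segments a smaller share of loci differed, and by less. Of the 15120 loci there, 1289 (8.53%) were called, against 769 (26.1%) of those inside. At 2-fold, 100 passed outside, 72 higher and 28 lower, and the median absolute log2 fold change was 0.148 against 0.246 inside. Leaving out wild-type replicate 1 or 2 brought the 1289 calls to 847 and 725. Besides 5PTASE11 and 2 heat shock genes described below, changes among loci with a symbol and 5 CPM or more, picked after their values were seen, included MEE65, coding for a protein related to the general transcription factor Brf1 (7.71 ± 0.927 to 2.29 ± 0.333 CPM, log2 -1.74), and ALDH3F1, an aldehyde dehydrogenase gene (3.22 ± 0.0998 to 7.32 ± 0.615 CPM, log2 1.20). ERF2, an ethylene response factor, was higher by 1.07, PDF1, a marker of the epidermal layer, by 1.07, and CYP71A15 by 1.01. FER1, a ferritin gene, fell from 97.1 ± 4.89 to 48.7 ± 3.75 CPM (log2 -0.99, SE 0.104, adjusted p = 2.81e-07).

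Seeds imbibed for 24 h gave 6 further libraries in which the same loci could be read, with no library in common. The imbibed comparison was wide: 9977 loci (55.2%) were called and 2146 (11.9%) passed 2-fold, of which 391 (2.16%) were higher in the tcp14-labelled libraries. Of the 277 loci called at 2-fold inside the segments in dry seeds, 193 (69.7%) were called in the same direction in imbibed seeds, 24 in the opposite direction and 60 not at all. Of the 100 outside, 41 were called in the same direction, 21 in the opposite one and 38 not at all. Inside the segments 16.4% of tested loci passed 2-fold in imbibed seeds, and outside 10.999%. For increases alone these shares were 4.32% and 1.75%. In imbibed seeds TCP14 was at 34.52 ± 3.14 CPM against 15.73 ± 1.98 CPM, ABCC9 was again far lower (log2 -6.53), TIF3C2 far higher (7.41), and LTI30 lower (-1.49).

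**Figure D3:**
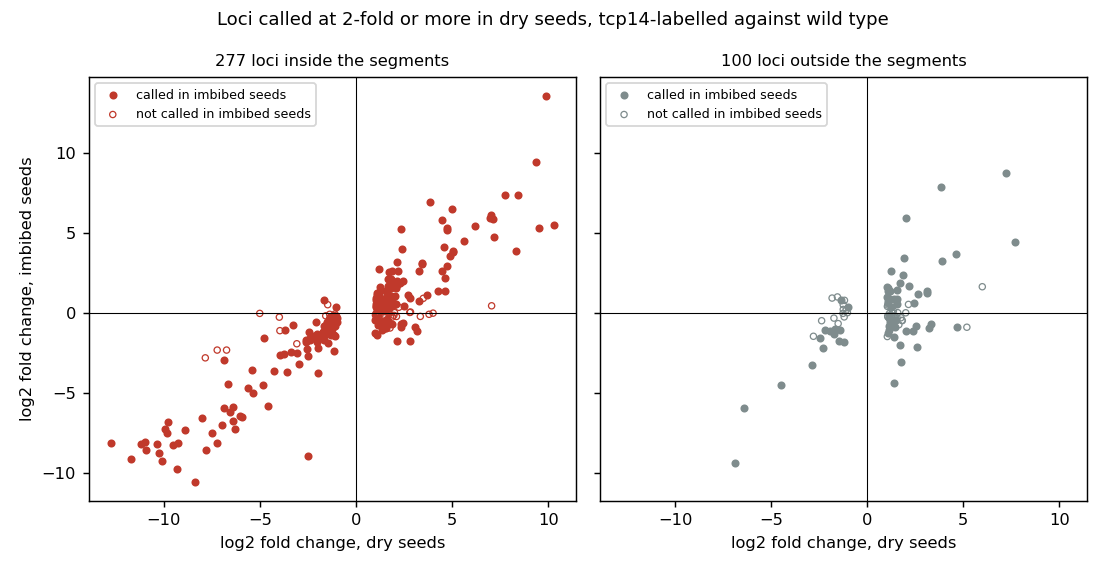
Log2 fold change of tcp14-labelled against wild type in dry seeds (horizontal) and in imbibed seeds (vertical) for the 377 loci called at 2-fold in dry seeds, split into 277 inside and 100 outside the segments. Filled points were called in imbibed seeds too; 193 points inside and 41 outside were called in the same direction.

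In dry mpk8 seeds, compared with the same wild-type libraries, 473 loci (2.62%) were called and 54 (0.299%) passed 2-fold. Leaving out wild-type replicate 1, 2 or 3 brought the 473 calls to 117, 168 and 232. Of these 54, 14 lay within the segments (0.476% of the loci there) and 40 outside (0.265%). Of the 20 largest tcp14-labelled differences 17 were not called in that line: ABCC9 was at 52.9 ± 2.86 CPM, ABCC15 at 41.8 ± 3.82 CPM and ANNAT1 at 31.4 ± 3.76 CPM. CYP81D11, at 15.6 ± 0.856 CPM, CYP71B18, at 54.9 ± 1.91 CPM, and LTI30, at 1367 ± 7.09 CPM, were called higher than wild type there (log2 0.64, 0.37 and 0.30). Both comparisons share the wild-type libraries, so the values are set side by side only.

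Gene groups of seed biology were then read in the same fit, against the background of 6.12% of tested loci higher and 5.27% lower. An unadjusted p under 0.05 in that fit was far more common, at 4353 of the 18061 tested loci in either direction. Counts at that level below are to be read beside this share. Seed reserves were mostly level. Of 16 genes for storage proteins and oil body proteins, 2 were higher, 2 lower and 12 not called, with a median log2 fold change of -0.03, against 0.02 over all tested loci. The 4 calls were an albumin pair of lower genes, SESA3 (26283 ± 994.1 to 17823 ± 1577 CPM, log2 -0.56) and SESA2 (-0.34), their neighbour SESA4, which was higher (3848 ± 107.9 to 5239 ± 307.2 CPM, 0.45), and the cruciferin-like AT1G03890, also higher (0.46). The SESA genes are a tandem of very similar copies, so the split of pairs among them is uncertain, and SESA2 lost its call without any one of 5 of the 6 libraries. The cruciferin CRU3 was at 55256 ± 2749 CPM in wild type and 59393 ± 4989 CPM in the tcp14-labelled group (log2 0.10, adjusted p = 0.727). Among 15 LEA genes 1 was called, M17, lower at 3688, 4126 and 4042 CPM against 1939, 2249 and 2346 CPM (log2 -0.86, SE 0.147, adjusted p = 2.55e-04). LTI30, described above, is a dehydrin outside that list. By an unadjusted p under 0.05, 1 LEA gene was higher and 3 were lower, and DESeq2 called 1 lower.

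Heat shock genes were the group with the most calls in one direction. Of 19 tested, 9 were lower and none higher (median log2 -0.26), and 16 of the 19 values were negative. At an unadjusted p under 0.05, 11 were lower and none higher, and DESeq2 also called 9 lower and none higher. HSP21, a chaperone of plastids, was at 5.67, 7.06 and 7.29 CPM in wild type and 2.53, 1.64 and 1.34 CPM in the tcp14-labelled libraries (log2 -1.83, SE 0.401, adjusted p = 0.00330). HSP17.6II, a cytosolic small heat shock protein, was at 24.7, 25.9 and 26.3 CPM against 9.78, 11.1 and 8.90 CPM (log2 -1.38, SE 0.158, adjusted p = 1.03e-06). The groups did not overlap for either gene. The endoplasmic reticulum protein ATHSP22.0 (-0.81), the mitochondrial HSP23.6-MITO (-0.78) and the abundant HSP17.4 (5013 ± 268.4 to 3117 ± 340.4 CPM, -0.69) were lower as well, whereas HSFA9, the seed-specific heat stress factor, was at 444.8 ± 10.8 CPM in wild type and 455.4 ± 17.7 CPM in the tcp14-labelled group (log2 0.03, adjusted p = 0.818). Of the 9, 1 lay in a segment, HSP17.4. In imbibed seeds 7 of the same 9 were called higher in the tcp14-labelled libraries and 2 were not called. Over the whole list 16 of 19 were called higher there and none lower, so this was not particular to the 9. It was not particular to this list either. All 16 storage and oil body genes were called higher there, and of 15 LEA genes 11 were higher and 3 lower. M17, SESA3 and SESA2, lower in dry seeds, were among those called higher in imbibed seeds. Of all 18061 tested loci, 4925 were called higher and 5052 lower in imbibed seeds. For all 9 the dry and the imbibed effect differed in the test of that difference, which called 33.2% of all tested loci. The 9 were picked by their dry calls, and that test uses the same dry values. Leaving out one library gave 7 to 9 lower calls.

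Abscisic acid (ABA) keeps seeds dormant and is made by the NCED enzymes and broken down by the CYP707A enzymes. Of 13 tested genes of ABA synthesis and breakdown, NCED9 was lower (7.31 ± 0.445 to 4.68 ± 0.236 CPM, log2 -0.64, SE 0.123, adjusted p = 9.87e-04) and CYP707A2 higher (41.1 ± 2.67 to 50.6 ± 2.27 CPM, log2 0.30, SE 0.0707, adjusted p = 0.00569), and 11 were not called. Of 18 genes of ABA signalling, 3 were higher and 2 lower. SNRK2.2, one of the kinases that carry the ABA signal in seeds, was at 120.8, 120.5 and 127.4 CPM against 78.9, 75.5 and 81.4 CPM (log2 -0.64, SE 0.0504, adjusted p = 1.99e-09), and it lies in the chromosome 3 segment. OST1, its relative known from stomata, was lower at about 1 CPM (1.06 ± 0.221 to 0.399 ± 0.155, log2 -1.46) but lost its call without wild-type replicate 2 or tcp14-labelled replicate 1 or 3. The higher ones were PYR1, an ABA receptor (0.38, not called without tcp14-labelled replicate 1), and the phosphatases HAI2 (0.33) and PP2CA (0.20), which restrain the signal. Without tcp14-labelled replicate 1 the list had 1 higher and 1 lower call, and without wild-type replicate 2 or tcp14-labelled replicate 3 it had 2 higher and 1 lower.

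Gibberellin opposes ABA and promotes germination. Of 20 tested genes of its synthesis and response, 1 was called, GA3, the ent-kaurene oxidase gene (217.5 ± 5.50 to 246.4 ± 3.69 CPM, log2 0.18, adjusted p = 0.0287), which lost its call without any one of 5 of the 6 libraries. Among 11 regulators of dormancy and maturation, FUS3, a B3 factor of seed maturation in the chromosome 3 segment, was lower (17.7 ± 0.547 to 13.8 ± 1.47 CPM, log2 -0.37, adjusted p = 0.0328) and lost its call without any one of 5 libraries. AT4G11040, the RDO5 dormancy gene, was higher (93.9 ± 4.14 to 111.3 ± 6.54 CPM, log2 0.25, adjusted p = 0.00353), and the other 9 were not called.

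Within the TCP family, 3 of 9 tested class I members were called. Beside TCP14 these were AT5G51910, the TCP19 gene (9.48 ± 0.115 to 13.2 ± 2.59 CPM, log2 0.49, adjusted p = 0.0101, not called without tcp14-labelled replicate 1 or 3), and TCP20, which lies in the same segment as TCP14 (11.8 ± 1.07 to 9.28 ± 0.787 CPM, log2 -0.34, adjusted p = 0.0451, not called without any one of 5 libraries, by the DESeq2 Wald test, with library totals or with all loci). None of 8 class II members was called by edgeR or DESeq2, and 1 had an unadjusted p under 0.05, PTF1, the TCP13 gene (0.451 ± 0.172 and 0.937 ± 0.365 CPM).

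Genes of growth that rise during germination were low in both groups. None of 14 genes of DNA replication and cell cycle and none of 15 of cell wall loosening was called by edgeR or DESeq2, and none of either had an unadjusted p under 0.05. Of these, 10 and 8 were under 0.5 CPM in both groups, so most differences were not detectable at this depth. The farthest from 0 were CYCA2;3, a cyclin (0.0630 CPM in wild type), and XTH33, a xyloglucan transferase (0.0694 CPM), both with no pair in the tcp14-labelled libraries. Of 17 cytosolic ribosomal protein genes 5 were higher and none lower (median log2 0.10). At an unadjusted p under 0.05 these counts were also 5 and none, and by DESeq2 3 and none. The largest of these changes were RPL16A (0.37), RP1 at AT1G43170, a gene for ribosomal protein L3 (177.4 ± 5.998 to 228.0 ± 23.3 CPM, 0.36), RPL23AB (0.27) and RPL5B (0.22). The count was 1 without tcp14-labelled replicate 1, 2 without wild-type replicate 1 or 2 and 3 without wild-type replicate 3. RPL16A lost its call with DESeq2 size factors, the DESeq2 Wald test, library totals and the 2 groups alone. It also lost it without wild-type replicate 1 or 3 or tcp14-labelled replicate 1 or 2. RPL23AB lost its call with library totals, the Wald test, and without wild-type replicate 2 or 3 or tcp14-labelled replicate 1 or 3. RPL5B lost its call without wild-type replicate 1 or 2 or tcp14-labelled replicate 1. Of 12 oil mobilisation genes 1 was called higher, ACX3, an acyl-CoA oxidase (0.21), and 1 lower. The lower count depended on the setting. The DESeq2 Wald test called 1 higher and 3 lower, the 2 groups alone 1 and 4, and library totals 1 and none. At an unadjusted p under 0.05 in the main fit, 2 were higher and 4 lower.

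Immune receptors of the NLR class had 4 lower calls and none higher among 15 tested (median log2 -0.06). The unadjusted p under 0.05 gave the same 4 and none, and DESeq2 called 4 lower and none higher. RPP1, described above, was joined by ZAR1, the receptor known for assembling a resistosome, at 45.8, 47.3 and 45.8 CPM in wild type against 22.1, 19.7 and 22.8 CPM (log2 -1.10, SE 0.0860, adjusted p = 1.99e-09). RPP5 (-1.03) and the helper ADR1 (-0.45) were the others, and both lost their calls without wild-type replicate 3 or tcp14-labelled replicate 1, which left 2 calls, ADR1 also without wild-type replicate 1. Of the 4, 3 lie in the segments, RPP5 being the exception. Of the 4 flavonoid genes tested F3H, flavanone 3-hydroxylase, was lower (17.1 ± 1.54 to 10.96 ± 1.22 CPM, log2 -0.64, not called without wild-type replicate 2), and it lies in the chromosome 3 segment. None of 9 glucosinolate and myrosinase genes was called by edgeR or DESeq2, and 1 had an unadjusted p under 0.05. AOP3, a dioxygenase gene of glucosinolate side chains, was the farthest from 0 at 0.121 and 0.325 CPM.

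**Figure D4:**
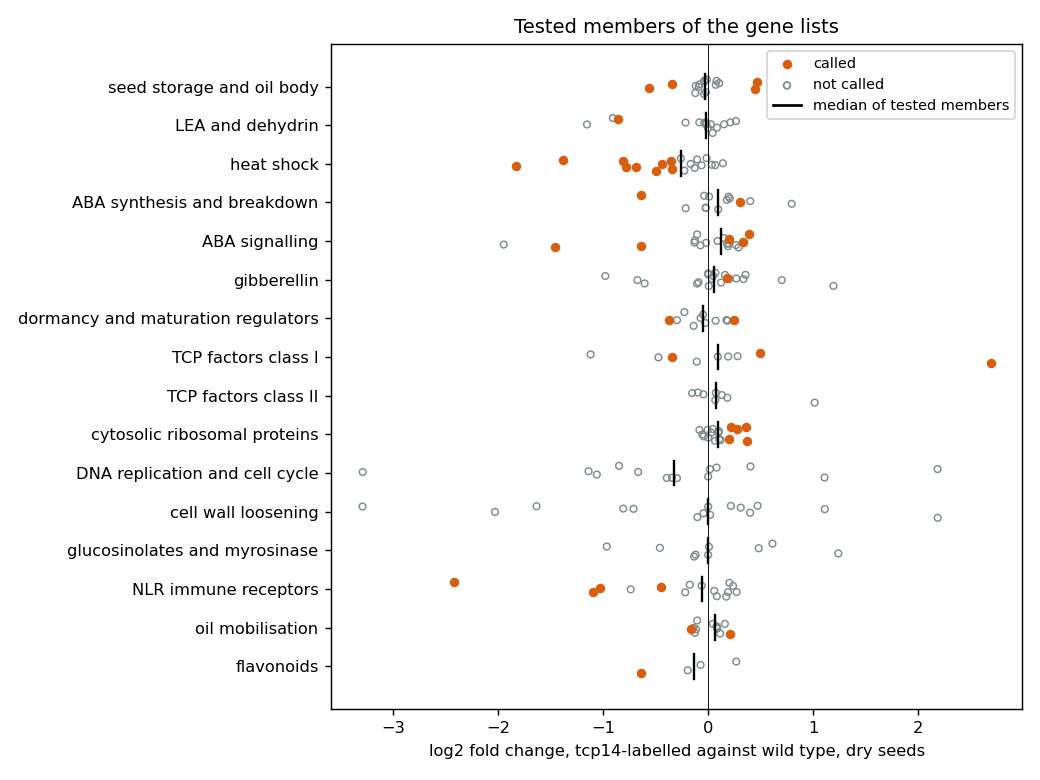
Log2 fold change of tcp14-labelled against wild-type dry seeds for each tested member of 16 gene lists, with filled points for calls and black lines for medians. Heat shock genes have 9 calls, all below 0, and a median of -0.26; the far right point among class I TCP factors is TCP14 at 2.69.

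The libraries were those of seeds by their markers. The 16 reserve genes summed to 241231 to 258064 CPM in the wild-type libraries and 230809 to 261591 CPM in the tcp14-labelled ones. Markers of leaf, 7 genes, summed to 33.8 to 35.0 CPM and 33.7 to 42.0 CPM, and markers of seed coat, 8 genes, to 15.9 to 16.7 CPM and 15.4 to 18.3 CPM. Endosperm markers rested on 1 gene of 6, EPR1, an extensin-like gene, at 28448 and 24822 CPM (log2 -0.20, adjusted p = 0.420), while RGE1 and PHE1 had no pair in either group. Pollen markers, 6 genes, summed to 110.7 to 120.6 CPM and 119.9 to 167.6 CPM, with VGDH1, a pectin methylesterase gene, called higher (21.6 ± 1.36 to 29.3 ± 5.33 CPM, log2 0.43, adjusted p = 0.0242; not called without tcp14-labelled replicate 1 or 2 or wild-type replicate 2 or 3, or with single reads). Of the 4 tested pollen markers 3 were higher at an unadjusted p under 0.05, which 4353 of all 18061 tested loci reached in either direction. Without tcp14-labelled replicate 3 edgeR called 3 pollen markers higher. None of the tested seed coat, endosperm and leaf markers was called by edgeR or DESeq2 over all libraries, and 1 of them, a leaf marker, had an unadjusted p under 0.05. With the 2 groups fitted alone, the 1 endosperm marker then tested was called lower (log2 -0.21). The largest differences among them were those of TTG2 in the seed coat list (0.0641 and 0.153 CPM), AGL62 in endosperm (0.974 and 0.730 CPM) and CAB1 in leaf (2.83 and 1.80 CPM). The part of these tissues in the gene differences was not tested.

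Promoters were searched for letters of the elements that class I TCP factors are known to bind, GTGGGNCC, TGGGCC and TGGGCT, on either strand, from 250 bases before to 50 after the start of each gene in the TAIR10.1 annotation; TGGGCC is contained in some matches of GTGGGNCC. At least 1 of them was found for 28.5% of tested loci, 28.1% of those called higher, 26.03% of those called lower and 28.6% of those not called. Over all 32834 promoters of that length the share was 21.0%. The shares among called loci were thus close to that of the loci not called, and a match is a description of letters and not a binding site.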

How the data were processed

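Per the labels' protocols, libraries were stranded, paired-end and poly(A)-selected. TopHat2, Bowtie2 and TAIR10 are named in the submitters' processing notes, without versions. Per the file headers, the authors deposited counts of properly paired reads per transcript model, after dropping pairs whose best and second-best alignments scored the same. How overlapping genes were treated is not given in the sources used here. Counts of pairs were used as deposited, and the deposited counts of single reads served as an alternative. Model length, another deposited column, was not used. Groups come from titles, 3 libraries each.

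All 18 libraries were fitted together with the quasi-likelihood test of edgeR 4.0.16 (limma 3.58.1, R 4.3.3; filterByExpr, TMM, 12 residual degrees of freedom), and p-values were Benjamini-Hochberg adjusted over 18061 loci. SE is |log2 fold change| over the square root of the F statistic. Names and promoters came from TAIR10.1, in which 32835 loci (97.7%) were found; no coordinates are given, because the files follow TAIR10. The fit was also run on counts simulated from its own estimates with planted changes, and the outcome is not given here. Such a run cannot speak to read alignment, similar gene copies or seed lots.

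Named are TCP14 and MPK8, the 10 largest increases and decreases with a symbol, 5 CPM and no overlap, 5 per segment by the same conditions and up to 4 called per list. Members and lists were chosen with earlier results of these data known, and genes of runs, families and the surroundings of TCP14 after their values were seen. Alternatives were DESeq2 1.42.0 (size factors, Wald test), library totals, all loci with a count, the 2 groups alone, a replicate block, single reads, other bins and each library left out. The values of 1 called list member are not reported here.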

Additional observations from a re-analysis of the deposited data

Results flagged for a closer look

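For 13 of the 23 named loci tested for it, the difference between tcp14-labelled and wild-type libraries was not the same in dry and in imbibed seeds, by the edgeR test of that difference (adjusted p under 0.05, called for 33.2% of all tested loci). Apart from TCP14 and MPK8 these loci were picked for large dry fold changes, which the same test uses. Their share and directions are therefore not comparable with those of all loci. Values are the dry minus the imbibed log2 fold change. TCP14 (1.55), UGT85A7 (1.35), SELT (0.91) and CYP71B18 (0.48) were raised more in dry seeds. ANNAT1 (-1.03), UGT85A3 (-0.86) and 5PTASE11 (-4.07) were raised more in imbibed seeds. CYP81D11 (-0.61), HCEF1 (-0.98), RPP1 (-0.75), CYCD3;3 (-0.78) and LTI30 (-0.59) were lowered more in dry seeds. ATL15 (-2.47) changed direction, being lower in dry seeds (log2 -1.65) and higher in imbibed seeds (0.82).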

How the results depend on the processing

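The dry count of 2058 calls became 377 with a 2-fold minimum and 1289 outside the segments, and 1347 to 1604 with one library left out. Outside the segments, left-out libraries gave 725 to 918 calls, and single reads gave 155 instead of 100 at 2-fold. The segments' 73.5% of calls at 2-fold became 68.2% with all loci, 65.5% with single reads, 68.7% with bins of 1000, 37.4% with no minimum fold, 72.3% to 77.2% with a library left out, and 74.3% when 1 lower bin in a row was allowed, a choice made after seeing the data. Segments were redrawn only for the bins of 1000 and for that last choice. In the other settings they were those of the main fit, so these shares do not show whether the same segments would be drawn again. Allowing 1 lower bin in a row took the chromosome 1 segment on to 47499 and left the chromosome 3 segment unchanged. The share of calls that were higher, 53.7%, was 45.3% with DESeq2 size factors, 62.7% with library totals, 43.9% with the DESeq2 Wald test, 57.9% with all loci, 46.3% with the 2 groups alone, 56.0% with single reads and 48.4% to 58.0% with a library left out. The mpk8 count of 473 was 838 with all loci and 117 to 520 without one library. The causes were not tested. TCP14 kept its direction and call in all settings, and no named locus reversed. Replicate numbers did not pair the libraries (same-number correlations -0.02, 0.07 and -0.08), and the replicate block gave 2111 calls, 372 at 2-fold. Loci under 0.5 CPM are limited by depth.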
